A study of Mus musculus with 2 samples.

Results

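Transcripts of the T cell receptor (TCR), of its signaling kinases, and of the first adaptor they act on were followed across the cell clusters of mouse kidneys with nephrotoxic nephritis (NTN). The 10 genes were taken by name and their unique molecular identifiers (UMIs, each counting 1 captured RNA molecule) were summed by cluster and library. They are *Trac*, *Trbc1*, *Trbc2*, *Cd3d*, *Cd3e*, *Cd3g*, *Cd247*, *Lck*, *Zap70*, and *Lat*, which is 10 of the 20299 genes in the table, and all 10 had UMIs in both libraries. The series holds 1 library of WT mice (5470 cells) and 1 library of Vsir-/- mice (1844 cells), which lack the checkpoint receptor VISTA. All mice were C57BL/6, aged 8 weeks, and had NTN, which was induced with 200 μg of sheep IgG followed after 4 days by nephrotoxic serum at 2 μL per g of body weight according to the labels; no healthy kidney was analysed here. Kidneys were dissociated in liberase at 0.2 mg/mL for 30 minutes at 37°C, and 3′ libraries were made on the 10x Genomics platform. The labels describe the WT library as sorted CD45+ cells and the Vsir-/- library as kidney cells of every kind, so that genotype and sorting cannot be told apart. With 1 library per genotype there is no replicate check and no test; each interval given is a 95% interval that covers counting error only, and a level is in CPM, UMIs per 1000000 UMIs of the same cells. In summed data, fewer expressing cells and less RNA per cell cannot be told apart.

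Each T cell carries a receptor whose antigen-binding pair of chains cannot signal alone. In αβ T cells the constant parts of that pair are encoded by *Trac* for the α chain and by either *Trbc1* or *Trbc2* for the β chain, and γδ T cells use other genes for theirs. The pair is assembled with the CD3δ, CD3ε, and CD3γ chains (*Cd3d*, *Cd3e*, *Cd3g*) and a dimer of the ζ chain (*Cd247*), whose tails hold tyrosine motifs. The Src family kinase LCK phosphorylates those tyrosines, ZAP-70 docks on them, and ZAP-70 then phosphorylates the membrane adaptor LAT, on which the downstream signaling complexes are built. Natural killer (NK) cells use the ζ chain, LCK, ZAP-70, and LAT with receptors of their own.

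The libraries held 32799550 (WT) and 18601189 (Vsir-/-) UMIs, with medians of 4726.5 and 6673 per cell, and 5 cell barcodes occurred in both. The disrupted gene *Vsir* had 4278 UMIs (130.4 CPM) in the WT library and 8 (0.43 CPM) in the Vsir-/- library. The authors named 16 clusters, 9 of them lymphoid. In the Vsir-/- library, the cluster named non-EM-like (not effector memory–like) CD4+ T cells held only 89.8 CPM of *Ptprc*, the gene of CD45, against 948 in WT, together with 13314 CPM of 29 kidney tubule genes against 133. The proliferating cluster was alike in this respect, with 144 CPM of *Ptprc* in Vsir-/- against 1010 in WT. Both clusters are therefore given with and without the cells that lack a *Ptprc* UMI.

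The β chain genes are near copies, and their sequences show where a 3′ read can tell them apart. *Trbc1* (chr6:41538218-41539881) and *Trbc2* (chr6:41546730-41548352) lie on the plus strand of GRCm38, and the 518 coding bases of their transcripts in the GENCODE M21 annotation are identical at 95.6% of positions. Of the 23 differing bases, 22 fall in the last 150, which are shown from base 369 to base 518 of the coding part, with the differing bases in capitals.

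Trbc1: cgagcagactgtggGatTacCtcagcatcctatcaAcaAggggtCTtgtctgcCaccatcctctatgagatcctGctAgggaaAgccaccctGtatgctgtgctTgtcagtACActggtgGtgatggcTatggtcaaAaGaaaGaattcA

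Trbc2: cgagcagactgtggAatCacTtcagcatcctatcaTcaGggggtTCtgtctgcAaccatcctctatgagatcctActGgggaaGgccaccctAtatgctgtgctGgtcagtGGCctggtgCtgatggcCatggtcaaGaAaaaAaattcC

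Of 647 stretches of 91 bases, the length of a read, in the *Trbc1* transcript, 201 occur unchanged in *Trbc2*, as do 201 of 602 in the other direction. The last of them ends 355 bases (*Trbc1*) and 310 bases (*Trbc2*) before the end of the transcript, so reads near the 3′ end, which this chemistry captures, can be assigned to 1 gene, and reads within the shared stretches cannot. UMIs of this pair are uncertain to that extent.

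The 3 CD3 genes sit side by side on chromosome 9, and *Cd3g* and *Cd3d* are transcribed away from each other from start sites 1355 bases apart, with *Cd3e* starting 27825 bases from *Cd3d*. In each library all 3 were higher in the clusters named as T cells than in any B or myeloid cluster. Vsir-/- non-EM-like CD4+ cells were the lowest of these T cell clusters, with 61.8, 37.8, and 73.7 CPM of *Cd3d*, *Cd3e*, and *Cd3g*. The 3 genes together reached at most 26.3 CPM in a Vsir-/- B or myeloid cluster (M2-like R2). For this shared pattern the 250 bases upstream of each RefSeq start site (GRCm38.p6) are shown, at chr9:44981536-44981785 on the plus strand for *Cd3d*, chr9:44980432-44980681 on the minus strand for *Cd3g*, and chr9:45009612-45009861 on the minus strand for *Cd3e*. Capitals mark GGAA on either strand, the core that transcription factors of the ETS family recognize.

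Cd3d: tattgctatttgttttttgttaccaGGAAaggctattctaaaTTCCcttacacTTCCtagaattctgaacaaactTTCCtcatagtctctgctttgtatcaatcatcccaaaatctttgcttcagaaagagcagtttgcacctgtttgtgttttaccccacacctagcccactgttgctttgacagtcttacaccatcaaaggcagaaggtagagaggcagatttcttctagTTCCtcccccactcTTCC

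Cd3g: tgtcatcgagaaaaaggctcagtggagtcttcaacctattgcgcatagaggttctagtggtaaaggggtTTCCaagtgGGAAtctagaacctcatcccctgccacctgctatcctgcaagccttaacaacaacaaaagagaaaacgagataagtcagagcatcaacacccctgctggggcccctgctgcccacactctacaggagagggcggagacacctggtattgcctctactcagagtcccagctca

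Cd3e: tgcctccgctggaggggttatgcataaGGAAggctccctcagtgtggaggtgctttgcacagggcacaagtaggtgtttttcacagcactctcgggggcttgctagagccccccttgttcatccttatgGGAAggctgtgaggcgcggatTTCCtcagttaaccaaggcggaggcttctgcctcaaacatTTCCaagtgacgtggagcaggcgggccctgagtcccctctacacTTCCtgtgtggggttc

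The core occurred 6 times in the *Cd3d* stretch, 5 times in that of *Cd3e*, and 2 times in that of *Cd3g*, against a mean of 2.91 over 32841 mouse promoters of the same length, of which 93.5% hold it at least once. None of the 3 held TATAAA, which 12.4% of promoters hold, or TGTGGT, a RUNX core, which 14.0% hold. The E-box CANNTG, present in 66.2% of promoters, occurred 3 times upstream of *Cd3g* and 1 time upstream of each of the others. Both strands were searched for every motif. A match or its absence describes these letters alone.

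In WT kidneys the 10 genes together stood at 5328–6463 CPM in the 4 CD4+ and CD8+ T cell clusters and at 5512 CPM in γδ T cells. They were lower in the other lymphoid clusters, with 3316 CPM in proliferating cells, 2111 in the cluster named NKT, 1795 in NK cells, and 1450 in group 2 innate lymphoid cells (ILC2). B cells had 130 CPM (95% interval 118–143), and the other clusters without T or NK identity lay between 381 and 699. In the Vsir-/- library, EM-like CD4+ cells had 6089 CPM, non-EM-like CD8+ cells 3854, EM-like CD8+ cells 6161, and γδ T cells 5168, whereas NK cells had 921, ILC2 846, proliferating cells 789, and the non-EM-like CD4+ cluster 474. B and myeloid clusters of at least 20 cells ranged from 7.76 to 64.3 CPM there. The order from αβ and γδ T cells through NK cells and ILC2 to B cells was thus present in each library, with the 2 Vsir-/- clusters that hold few CD45 transcripts out of place. UMIs are 1 per molecule whatever its length, but capture differs between genes, so levels are compared mainly for the same gene between clusters.

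**Figure D1:**
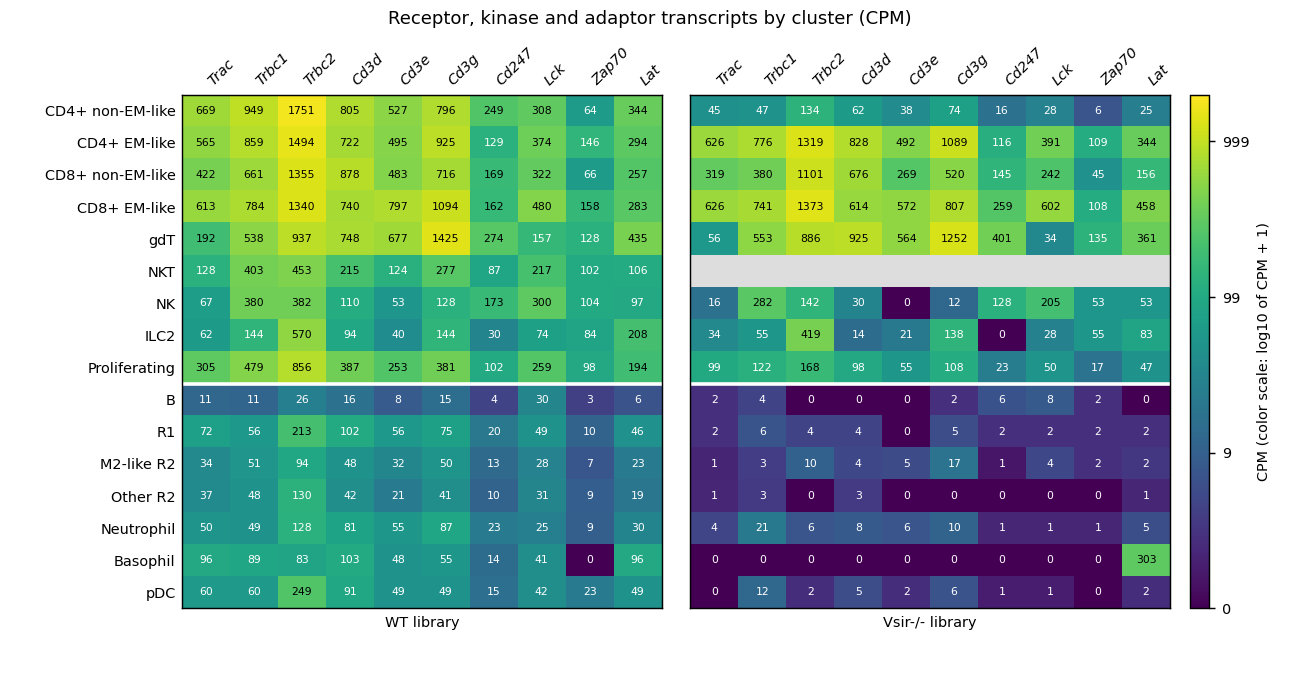
Levels of the 10 genes (columns) in the 16 clusters (rows) of the WT library (left) and the Vsir-/- library (right), in CPM, printed in each field and colored on a log scale; the white line divides lymphoid clusters from B and myeloid clusters, and gray marks the NKT cluster, which has no Vsir-/- cells. In WT the antigen-binding chains and the CD3 genes are highest in the αβ and γδ T cell clusters, apart from *Trac* in γδ T cells (192 CPM), whereas NK cells hold more *Zap70* (104) than the non-EM-like T cell clusters (66.0 and 63.5) and more *Cd247* (173) than EM-like CD4+ cells (129). In Vsir-/- every gene is low in the non-EM-like CD4+ cells.

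Of the antigen-binding chains, *Trbc2* was the most abundant in every T cell cluster. In WT it stood at 1751 CPM in non-EM-like CD4+, 1494 in EM-like CD4+, 1355 in non-EM-like CD8+, and 1340 in EM-like CD8+ cells, the last 2 with overlapping intervals. In Vsir-/- it stood at 1373 CPM in EM-like CD8+, 1319 in EM-like CD4+, and 1101 in non-EM-like CD8+ cells. *Trbc1* followed the same order in WT except that EM-like CD8+ cells (784 CPM) exceeded non-EM-like CD8+ cells (661). *Trac*, the only α chain constant gene, reached 669 CPM in WT non-EM-like CD4+, 613 in EM-like CD8+, 565 in EM-like CD4+, and 422 in non-EM-like CD8+ cells, of which only the lowest stood apart from the next by its interval. Its Vsir-/- values were 626 CPM in both EM-like clusters and 319 in non-EM-like CD8+ cells. UMIs of these 3 genes made up 42.4%–52.1% of the UMIs of all 10 in the 4 WT clusters.

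Each CD3 gene had its own order among the αβ T cell clusters. *Cd3d*, for the δ chain, ranged from 722 to 878 CPM in the 4 WT clusters and was highest in non-EM-like CD8+ cells. *Cd3e*, for the ε chain, which pairs with both of the other CD3 chains, was 797 CPM (737–860) in WT EM-like CD8+ cells, whereas the remaining αβ clusters ranged from 483 to 527. *Cd3g*, for the γ chain, was 1094 CPM in EM-like CD8+, 925 in EM-like CD4+, 796 in non-EM-like CD4+, and 716 in non-EM-like CD8+ cells, each apart from the next. In Vsir-/- the same gene was highest among αβ clusters in EM-like CD4+ cells (1089 CPM), followed by EM-like CD8+ (807) and non-EM-like CD8+ cells (520). A UMI of any CD3 gene was found in 99.9% of WT non-EM-like CD4+, 100% of non-EM-like CD8+, and 98.5% of EM-like CD8+ cells, at medians of 4897, 7117, and 3886 UMIs per cell. In B cells of the same library, which do not use CD3, the share was 7.95% at a median of 3426 UMIs, and in neutrophils it was 19.1% at 3565. After thinning every cell to 1000 UMIs, the shares were 88.4%, 86.6%, and 89.7% in those T cell clusters, against 2.85% in B cells and 7.75% in neutrophils. In Vsir-/- the thinned shares were 84.2% in EM-like CD4+ and 72.0% in non-EM-like CD8+ cells, against 0.65% of neutrophils. Unthinned, these were 94.7%, 96.0%, and 5.06%, at medians of 5852.5, 8325.5, and 4097 UMIs, and the share in Vsir-/- B cells was 1.14% at 3596.5.

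EM-like CD4+ cells of the WT library departed from that pattern, because 97 of 489 had no UMI of a CD3 gene. Those 97 cells held 997 CPM of *Ncr1*, 681 of *Klre1*, and 2529 of *Fcer1g*, which are genes of NK and related innate lymphoid cells, together with 596 CPM of *Trbc1*, 633 of *Trbc2*, 311 of *Lck*, and only 21.8 of *Trac* and 37.0 of *Cd247*. In Vsir-/- 13 of 244 cells of this cluster had no CD3 UMI, and they too held *Ncr1* (741 CPM). Among the cells with a CD3 UMI, *Klre1* stood at 232 CPM in WT and 85.6 in Vsir-/-. The part of these cells in the differences between libraries given later was not tested. This split was made after the values were seen.

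The remaining members are less abundant. *Cd247* was 249 CPM in WT non-EM-like CD4+ cells, 169 and 162 in the CD8+ clusters, and 129 in EM-like CD4+ cells. *Lck* was 480 CPM (434–530) in WT EM-like CD8+, 374 in EM-like CD4+, 322 in non-EM-like CD8+, and 308 in non-EM-like CD4+ cells, and the Vsir-/- values of the first 3 were 602, 391, and 242, in the same order. *Zap70* was the least abundant member in the non-EM-like clusters. It stood at 158 and 146 CPM in the EM-like CD8+ and CD4+ clusters of WT, and at 66.0 and 63.5 in the non-EM-like ones, so that the 2 EM-like clusters lay above the 2 others without overlap of intervals. *Lat* varied little in WT, from 257 CPM in non-EM-like CD8+ to 344 in non-EM-like CD4+ cells.

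EM-like and non-EM-like CD8+ cells, a contrast chosen after the values were seen, can be set against each other within a library, which leaves sorting and genotype aside. *Zap70* was higher in EM-like cells by 1.26 on the log2 scale (0.95 to 1.56) in WT and by 1.26 (0.26 to 2.25) in Vsir-/-. *Cd3e* was higher by 0.72 (0.60 to 0.85) in WT and by 1.09 (0.68 to 1.49) in Vsir-/-, and *Cd3g* by 0.61 and 0.63. The kinase *Lck* was higher by 0.57 (0.41 to 0.73) in WT and by 1.32 (0.91 to 1.72) in Vsir-/-. In contrast, *Cd3d* was 0.25 lower in WT, with a log2 ratio of −0.25 (−0.37 to −0.12), and −0.14 (−0.48 to 0.19) in Vsir-/-. For *Lat* the contrast gave 0.14 (−0.07 to 0.34) in WT and 1.55 (1.06 to 2.04) in Vsir-/-, and for *Cd247* it gave −0.07 (−0.34 to 0.20) and 0.84 (0.25 to 1.42); whether these contrasts differ between genotypes could not be tested. For CD4+ cells of WT, *Zap70* was again higher in EM-like cells, by 1.20 (0.98 to 1.42), and *Cd247* was lower, at −0.95 (−1.13 to −0.78). The clusters were made from the same transcripts, so these are descriptions of them. WT EM-like CD8+ cells also held 1177 CPM of *Fcer1g* against 11.9 in non-EM-like cells, and 139 against 6.79 in Vsir-/-, and the Vsir-/- EM-like and non-EM-like cells held 1735 and 4716 CPM of tubule genes. The 4 genes of γδ T cells on the marker list moved with this contrast as well, with 694 CPM in EM-like against 13.8 in non-EM-like CD8+ cells of WT and 452 against 4.52 in Vsir-/-. The part of each in the contrast was not tested.

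γδ T cells (46 WT and 28 Vsir-/- cells) carried *Trdc*, the δ constant gene, at 837 and 2138 CPM. They held the highest *Cd3g* of any cluster, at 1425 CPM (1289–1572) in WT and 1252 (1093–1429) in Vsir-/-, where the interval overlapped that of EM-like CD4+ cells (1038–1141). CD3 genes made up 51.7% and 53.1% of their member UMIs, compared with 32.9%–40.8% in the 4 WT αβ clusters. *Cd247* (274 and 401 CPM) was also highest here in each library, although its intervals overlapped those of non-EM-like CD4+ cells in WT and of EM-like CD8+ cells in Vsir-/-. *Trac* was low, at 192 CPM in WT and 56.4 in Vsir-/-, and was detected in 21 of 46 and 7 of 28 cells. The β chain constant genes were nevertheless abundant, with *Trbc2* at 937 and 886 CPM and *Trbc1* at 538 and 553. *Lck* was lower than in any αβ cluster other than the Vsir-/- non-EM-like CD4+ cluster, at 157 CPM (114–210) in WT and 33.9 (12.4–73.7) in Vsir-/-, and was found in 15 of 46 and 3 of 28 cells. *Zap70* (128 and 135 CPM) and *Lat* (435 and 361 CPM) were not low, so the kinases differed from each other in this cluster.

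**Figure D2:**
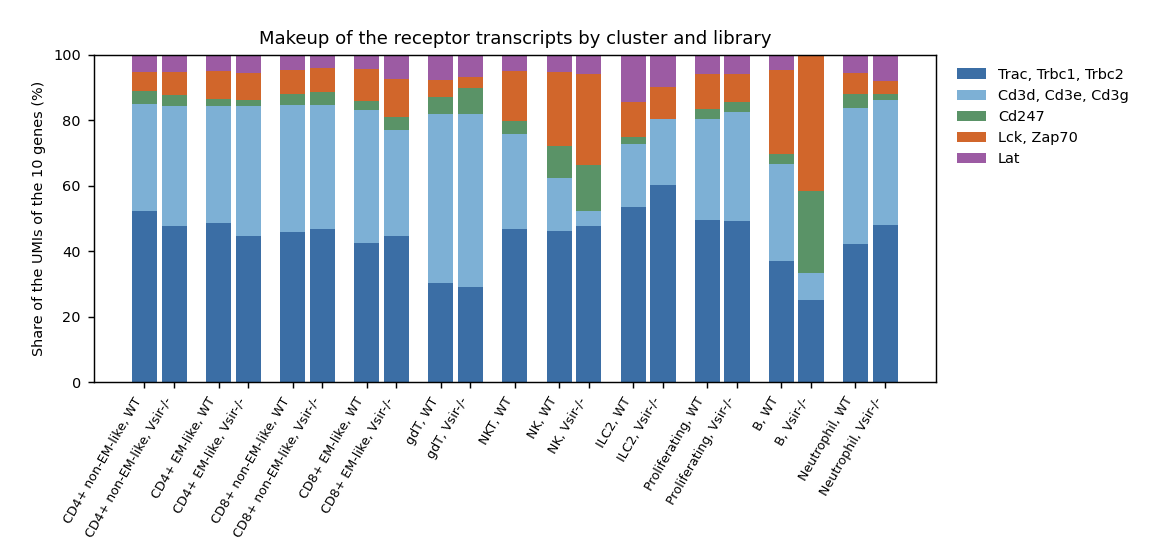
Share of the UMIs of the 10 genes (%, y axis) that falls to each role, for every lymphoid cluster and for B cells and neutrophils, in each library; bars sum to 100%. CD3 genes take the largest part in γδ T cells (51.7% in WT) and kinases take 22.5% in WT NK cells; the Vsir-/- B cell bar rests on 12 UMIs.

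NK cells expressed part of the set. In 594 WT and 67 Vsir-/- NK cells, *Lck* stood at 300 and 205 CPM, *Cd247* at 173 and 128, *Zap70* at 104 and 53.3, and *Lat* at 96.6 and 53.3. WT levels of *Lck* and *Cd247* overlapped those of non-EM-like CD4+ and of non-EM-like CD8+ T cells, respectively. *Trbc1* (380 and 282 CPM) and *Trbc2* (382 and 142 CPM) were present as well, whereas *Trac* was at 67.0 and 15.8. The CD3 genes were low, with *Cd3d* at 110 and 29.6 CPM, *Cd3g* at 128 and 11.8, and *Cd3e* at 52.7 and 0. For comparison, WT B and myeloid clusters held up to 103 CPM of *Cd3d*, 87.5 of *Cd3g*, 56.1 of *Cd3e*, and 96.3 of *Trac*, so that *Cd3e* and *Trac* of WT NK cells lay within that range and *Cd3d* and *Cd3g* above it. The same clusters held at most 48.9 CPM of *Lck*, 22.6 of *Cd247*, 22.7 of *Zap70*, 89.4 of *Trbc1*, and 249 of *Trbc2*, all below the NK values. In Vsir-/- clusters of at least 20 cells these 5 genes reached no more than 7.62, 5.72, 1.91, 20.6, and 9.55 CPM, again below NK cells. The 424 WT and 60 Vsir-/- NK cells with no CD3 UMI still held 333 and 264 CPM of *Trbc1*, 238 and 126 of *Trbc2*, 286 and 204 of *Lck*, and 176 and 133 of *Cd247*. Adaptors that serve NK receptors in the place of CD3 were abundant in the NK cluster, with *Fcer1g* at 2217 and 1789 CPM and *Tyrobp* (DAP12) at 2906 and 2221, and *Syk*, whose kinase is related to ZAP-70, was at 70.2 and 112 CPM.

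ILC2, of which there were 79 WT and 19 Vsir-/- cells, showed a different part of it. *Trbc2* was the leading member, at 570 CPM (499–649) in WT and 419 (321–539) in Vsir-/-, and *Trbc1* was 144 and 55.0. *Lat* followed at 208 and 82.5 CPM, with *Zap70* at 84.3 and 55.0. *Lck* was 74.3 and 27.5 CPM, and *Cd247* was 29.7 and 0, the lowest values of these 2 genes in any WT lymphoid cluster. In the 64 WT cells with no CD3 UMI, *Trbc2* remained at 487 CPM and *Lat* at 170, while *Lck* was 13.3 and *Cd247* 3.34. These ILC2 had 63.4 CPM of *Zap70*, so that the adaptor and this kinase were present where *Lck* and *Cd247* were below the level of WT myeloid cells (30.1 and 15.7 CPM).

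The 94 cells of the cluster named NKT, all of them WT, held 128 CPM of *Trac*, 453 of *Trbc2*, 278 of *Cd3g*, and 217 of *Lck*, and 64.9% of them had a CD3 UMI. They also held 1292 CPM of *Cd79a*, a B cell gene that stood at 7.18 CPM in WT NK cells, and 1884 CPM of 5 NK genes. The cluster is called by its deposited name, and its summed level of the 10 genes lay between those of NK cells and αβ T cells.

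**Figure D3:**
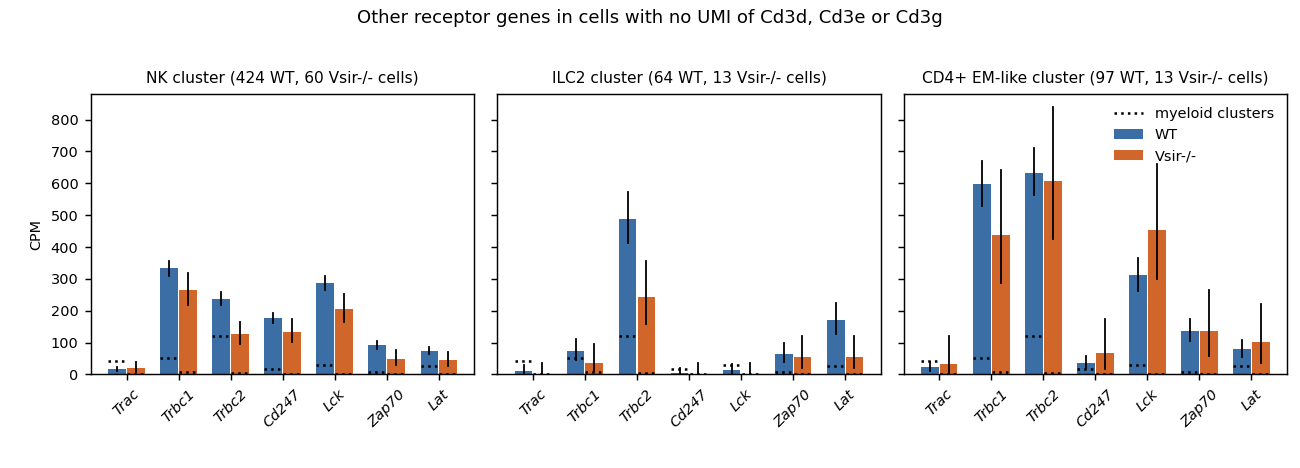
Levels (CPM, y axis) of the 7 members outside the CD3 genes in the cells with no CD3 UMI of 3 clusters, in WT (blue) and Vsir-/- (orange); lines are 95% Poisson intervals and dotted lines give the level in all myeloid clusters of the same library. *Trbc1*, *Trbc2*, and *Lck* lie above the dotted lines in NK cells and in the EM-like CD4+ cluster, and in ILC2 *Trbc2* (487 and 243 CPM) does.

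Members were also found in clusters that are not known to use the receptor. In WT B and myeloid clusters, 4718 UMIs of the 10 genes were counted in 2299 cells (370 CPM), and 233 in 870 cells (35.6 CPM) in Vsir-/-. In WT *Trac* made up 9.37% of these UMIs against 9.25% in the 4 αβ clusters, *Trbc2* 25.7% against 25.6%, and *Cd3d* 13.4% against 13.7%. *Trbc1* was lower there, at 10.9% (10.1%–11.9%) against 13.6% (13.4%–13.9%), and *Lat* was 5.91% against 4.99%. *Lck* took 8.16% (7.39%–8.98%) against 5.71%, and in B cells it stood at 30.4 CPM, the highest of the 10 genes there, with UMIs in 87 of 969 cells (8.98%; 2.75% after thinning). In Vsir-/- the makeup differed more, with *Trbc1* at 21.03% against 11.9%, *Trbc2* at 12.4% against 23.5%, and *Trac* at 4.29% against 9.91%. This makeup rests on few cells. Of the 49 *Trbc1* UMIs there, 16 lay in 1 neutrophil and 14 in at most 2 cells of the plasmacytoid dendritic cell cluster. *Lat* was detected in 12 of 25 WT basophils (96.3 CPM) and made up all 3 member UMIs of 2 Vsir-/- basophils; in the other WT B and myeloid clusters it lay between 6.03 and 49.1 CPM. In myeloid clusters together the summed level was 461 CPM in WT and 36.7 in Vsir-/-, which is 12.5-fold apart. Cells that do not use the receptor thus differed between the libraries by more than the T cell clusters other than non-EM-like CD4+ cells did, and the part of this gap in lower Vsir-/- values of other clusters was not tested.

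UMIs of the 2 β chain genes were not evenly split. Capture and the assignment of shared reads can differ between the 2 genes, so the share is compared between clusters and does not measure their use. *Trbc1* accounted for 35.1% (34.3%–36.0%) of *Trbc1* and *Trbc2* UMIs in WT non-EM-like CD4+ cells, 36.5% in EM-like CD4+, 32.8% in non-EM-like CD8+, 36.9% in EM-like CD8+, and 36.5% in γδ T cells. In Vsir-/- it was 37.0% in EM-like CD4+ cells, 35.0% in EM-like CD8+ cells, and 38.4% in γδ T cells, all within the WT intervals or overlapping them, and 25.6% (22.3%–29.2%) in 50 non-EM-like CD8+ cells. NK cells differed, with 49.9% (48.0%–51.7%) in WT and 66.5% (59.8%–72.8%) in Vsir-/-, and ILC2 lay at the other end with 20.1% (15.7%–25.2%) and 11.6% (5.14%–21.6%). The intervals of NK cells and ILC2 overlapped those of no CD4+ or CD8+ T cell cluster of the same library. In the WT cluster named NKT the share was 47.1% (42.1%–52.1%), with an interval that overlapped that of WT NK cells. These intervals treat every UMI as independent. UMIs of 1 cell often come mostly from 1 of the 2 genes, so the intervals are too narrow. Counted by cells with a UMI of either gene, *Trbc1* exceeded *Trbc2* in 25.0% of Vsir-/- and 26.8% of WT non-EM-like CD8+ cells. It did so in 25.3% of the NKT cluster and 49.0% of WT NK cells.

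Single cells were more uneven than these sums. Among WT non-EM-like CD4+ cells with at least 5 UMIs of the pair (800 cells), 49.4% had 80% or more of them from *Trbc2*, 8.5% had 80% or more from *Trbc1*, and 42.1% were mixed. The 611 non-EM-like CD8+ cells split alike, with 51.6%, 9.0%, and 39.4%. In 211 WT NK cells, by contrast, 19.4% were mostly *Trbc2*, 21.3% mostly *Trbc1*, and 59.2% mixed, and of 17 Vsir-/- NK cells none was mostly *Trbc2*, which with 0 of 17 allows up to 19.5% (Clopper-Pearson). Of 27 cells of the NKT cluster, 18.5% were mostly *Trbc2*, 18.5% mostly *Trbc1*, and 63.0% mixed. Cells with 5 UMIs can look mixed or uneven by counting alone, and shared stretches of the transcripts cannot be told apart.

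**Figure D4:**
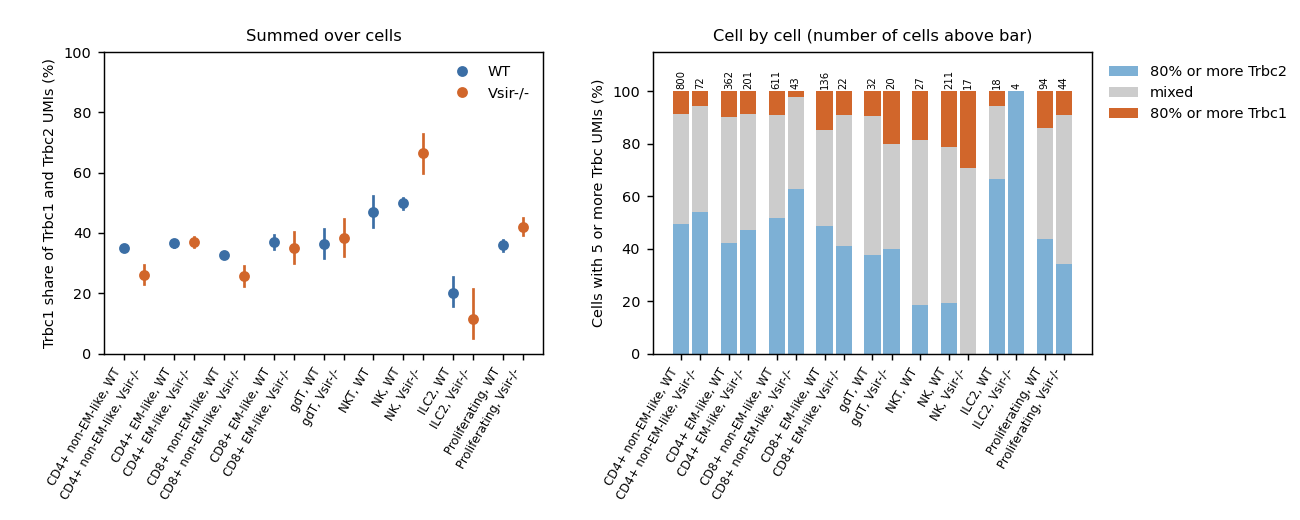
Left, *Trbc1* share of the UMIs of *Trbc1* and *Trbc2* (%, y axis) summed over cells, by cluster, in WT (blue) and Vsir-/- (orange), with 95% Clopper-Pearson intervals; right, share of cells with at least 5 such UMIs (numbers above bars) in which either gene takes 80% or more. CD4+, CD8+, and γδ T cell clusters lie between 25.6% and 38.4% on the left, the NKT cluster at 47.1%, NK cells at 49.9% and 66.5%, and ILC2 at 20.1% and 11.6%.

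The comparison of Vsir-/- with WT asks whether cells without VISTA carry more or less of the receptor machinery. In EM-like CD4+ cells, which had 244 and 489 cells, the sum of the 10 genes was 6089 against 6003 CPM, a log2 ratio of 0.02 (−0.02 to 0.06). Of the 10 genes none was 2-fold or more higher, where 10.4% of 9751 genes tested were, and none was 2-fold or more lower, where 5.41% were. *Cd3g* (1089 against 925 CPM; log2 ratio 0.24, 0.15 to 0.32), *Lat* (344 against 294; 0.22, 0.07 to 0.38), *Cd3d* (828 against 722; 0.20, 0.10 to 0.30), and *Trac* (626 against 565; 0.15, 0.03 to 0.26) were slightly higher in Vsir-/-. *Zap70* (109 against 146; −0.42, −0.69 to −0.16), *Trbc2* (1319 against 1494; −0.18, −0.26 to −0.10), and *Trbc1* (776 against 859; −0.15, −0.25 to −0.05) were lower, and the intervals of *Cd3e*, *Cd247*, and *Lck* held 0. Cells without a CD3 UMI made up 97 of 489 WT and 13 of 244 Vsir-/- cells of this cluster, as described earlier. Among cells with a CD3 UMI, *Trac* was 672 CPM in WT and 649 in Vsir-/-, *Lck* 387 and 388, and *Lat* 336 and 353, while *Trbc2* was 1663 and 1347 and *Zap70* 148 and 108. The lower *Zap70* of Vsir-/- was thus present in that subset and the higher *Trac* was not, and *Lat* differed less there than in the whole cluster. Cells without a CD3 UMI hold no *Cd3d* or *Cd3g* by definition. The higher *Cd3d* and *Cd3g* of the whole Vsir-/- cluster therefore cannot be told apart from its smaller share of such cells, whose part was not tested. The direction of *Trbc1* and *Trbc2* was not stable, since thinning each cell to 1000 UMIs turned their log2 ratios to 0.018 and 0.030.

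In non-EM-like CD8+ cells (50 Vsir-/- and 659 WT cells) each of the 10 genes was lower in Vsir-/-, and the sum was 3854 against 5328 CPM, a log2 ratio of −0.47 (−0.54 to −0.40). No gene was 2-fold or more lower or higher, against 9.66% and 11.1% of 8919 genes. *Cd3e* was lowest in relation to WT (269 against 483 CPM; −0.84, −1.12 to −0.58), then *Trbc1* (380 against 661; −0.80, −1.03 to −0.57) and *Lat* (156 against 257; −0.72, −1.09 to −0.37). *Trbc2* (1101 against 1355; −0.30, −0.43 to −0.17) was among the least different, and the intervals of *Cd247* and *Zap70* held 0. Tubule genes stood at 4716 CPM in these Vsir-/- cells and at 51.0 in WT. Leaving tubule and mitochondrial genes out of the UMI total kept the sign of the ratio of the sum, and their part was not otherwise tested.

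In EM-like CD8+ cells (28 Vsir-/- and 197 WT cells) the sums were 6161 and 6450 CPM (−0.07, −0.16 to 0.03). No member was past 2-fold, where 6.03% of 5521 genes were higher and 9.98% lower. *Lat* was 458 against 283 CPM (0.69, 0.30 to 1.07) and *Cd247* 259 against 162 (0.68, 0.15 to 1.19), whereas *Cd3e* was 572 against 797 (−0.48, −0.80 to −0.17) and *Cd3g* 807 against 1094 (−0.44, −0.71 to −0.18). The receptor chains *Trac*, *Trbc1*, and *Trbc2* differed by less than 0.1 on the log2 scale, with intervals that held 0. NK genes, 5 in all, summed to 367 CPM in these Vsir-/- cells and to 2080 in WT, and their part in the result was not tested.

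In γδ T cells the sums were 5168 and 5512 CPM (−0.09, −0.22 to 0.03). *Lck* (33.9 against 157 CPM; −2.21, −3.73 to −0.98) and *Trac* (56.4 against 192; −1.77, −2.91 to −0.78) were 2 of 10 genes that were 2-fold or more lower, where 6.6% of 3379 genes were, and none was that much higher, where 5.98% were. They rest on 6 and 10 UMIs in 28 Vsir-/- cells, and after thinning to 1000 UMIs *Lck* turned to 0.13 and *Trac* to −0.87, so that neither was past 2-fold. *Cd247* (401 against 274; 0.55, 0.06 to 1.03) and *Cd3d* (925 against 748; 0.31, 0.00 to 0.61) were higher, but thinning turned *Cd247* to −0.043, and with cells holding a *Ptprc* UMI the interval of *Cd3d* held 0 (0.23, −0.08 to 0.54). In WT myeloid cells *Trac* stood at 43.5 and *Lck* at 30.1 CPM, below the WT γδ values. The 4 γδ T cell genes on the marker list stood at 3351 CPM in the Vsir-/- γδ cluster and at 1689 in the WT one. The part of background RNA and of the makeup of the cluster in these differences was not tested.

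The NK cluster had 921 against 1795 CPM (log2 ratio −0.96, −1.10 to −0.83). Here 5 of 10 members were 2-fold or more lower in Vsir-/-, where 7.01% of 8963 genes were, and none was higher by that much, where 9.86% were. The 5 were *Cd3e* (0 UMIs in Vsir-/-, at least 8.90-fold lower taking 3 UMIs over the cluster as the floor), *Cd3g* (−3.44), *Trac* (−2.09), *Cd3d* (−1.90), and *Trbc2* (−1.43). The other members differed less, with *Trbc1* at −0.43 (−0.69 to −0.18), *Cd247* at −0.44 (−0.83 to −0.07), *Lck* at −0.55 (−0.85 to −0.26), *Lat* at −0.86 (−1.48 to −0.29), and *Zap70* at −0.97 (−1.59 to −0.40). In myeloid clusters the corresponding log2 ratios were −3.98 for *Cd3e*, −2.82 for *Cd3g*, −4.86 for *Trac*, −3.80 for *Cd3d*, and −4.65 for *Trbc2*. The other 5 members were lower there as well, with *Trbc1* at −2.72, *Cd247* at −3.97, *Lck* at −3.92, *Lat* at −3.30, and *Zap70* at −2.80. In ILC2 4 of the 8 members with at least 20 UMIs were 2-fold or more lower, where 12.3% of 3957 genes were, and none was higher, where 11.4% were, with a median of −1.01 against −0.11 over all genes. They were *Cd3d* (−2.78, −5.87 to −0.82), *Lck* (−1.43, −3.40 to 0.07), *Trbc1* (−1.39), and *Lat* (−1.34), on 2 to 12 Vsir-/- UMIs, while *Trbc2* was −0.44 (−0.87 to −0.03). Without the cells of highest UMI totals *Trbc2* turned to 0.016, and as a mean over cells it turned to 0.14 and the log2 ratio of the sum went from −0.78 to −0.10. Tubule genes stood at 8265 CPM in Vsir-/- against 29.7 in WT ILC2 and at 2697 against 20.2 in NK cells. The 4 ILC2 marker genes stood at 1568 against 2404 CPM in ILC2. Apart from leaving tubule and mitochondrial genes out of the UMI total, the part of these genes was not tested.

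**Figure D5:**
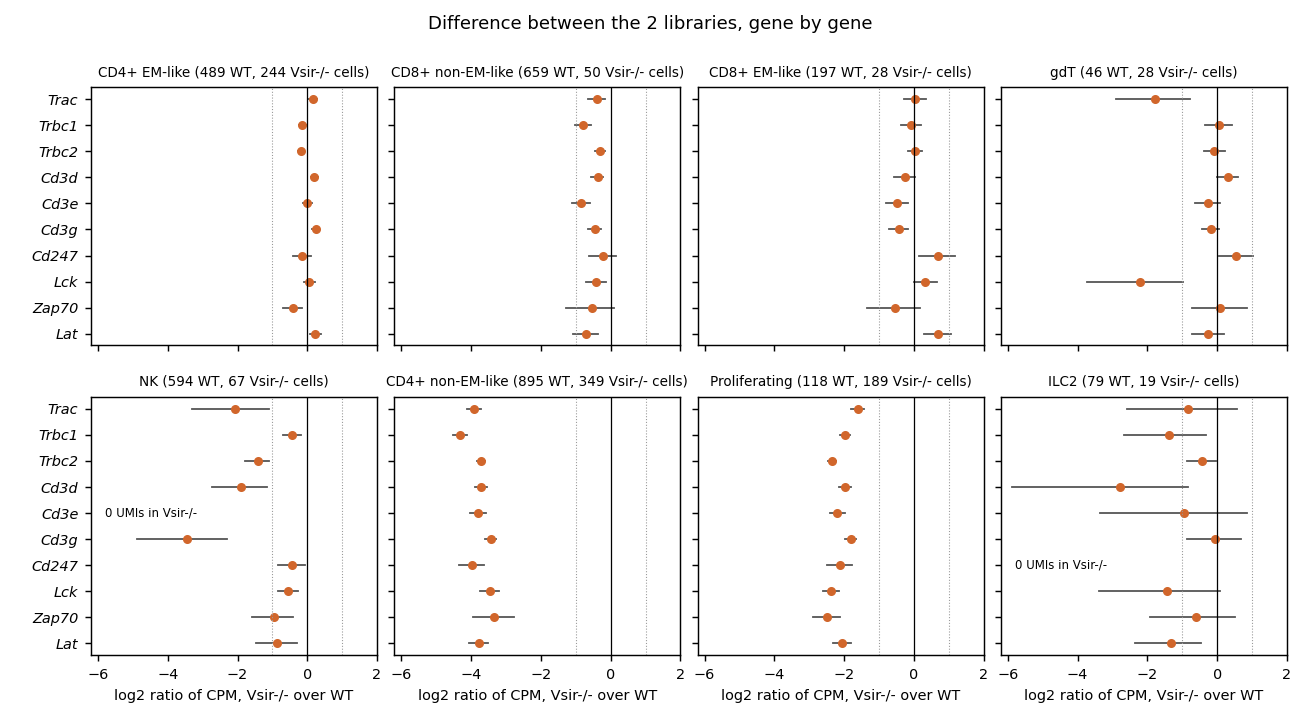
Log2 ratio of CPM in Vsir-/- over WT (x axis) for each of the 10 genes (y axis) in 8 clusters, with exact 95% intervals for counting error; dotted lines mark 2-fold. Points lie at −0.42 to 0.24 in EM-like CD4+ cells and at −0.54 to 0.69 in EM-like CD8+ cells. They lie at −0.84 to −0.22 in non-EM-like CD8+ cells, and at −4.32 to −3.33 in the non-EM-like CD4+ cluster.

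Far less of the set was found in Vsir-/- cells of 2 clusters, non-EM-like CD4+ and proliferating. All 10 genes were 2-fold or more lower in each, where 10.7% of 12583 genes in the CD4+ cluster and 9.0% of 12248 in the proliferating cluster were, and none was higher, where 47.8% and 37.5% were. The median log2 ratio of the 10 genes was −3.74 and −2.09, against 0.91 and 0.51 over all genes tested. Only 102 of 349 Vsir-/- cells (29.2%) of the CD4+ cluster had a CD3 UMI, and in the other 247 *Ptprc* was at 7.37 CPM. Among cells with a *Ptprc* UMI (106 Vsir-/- and 851 WT cells), the sum was 1895 against 6461 CPM, a log2 ratio of −1.77 (−1.84 to −1.70), and in the proliferating cluster it was −0.71. With that restriction all 10 genes in the CD4+ cluster and 2 of 10 in the proliferating cluster were 2-fold or more lower, where 9.04% and 6.39% of genes were, and none was higher, where 33.7% and 26.8% were. The medians over the 10 genes were then −1.74 and −0.76, against 0.47 and 0.27 over all genes. In the 102 cells with a CD3 UMI, *Trac* was at 210 CPM, *Trbc2* at 648, and *Lck* at 129, each below the values of 669, 1751, and 308 in WT cells chosen in the same way. Over the whole CD4+ cluster the median was 7574 UMIs per cell in Vsir-/- against 4897 in WT. A CPM is a share of the UMIs of the same cells and does not give molecules per cell. The part of depth and of tubule RNA in the lower values of these CD4+ subsets was not tested. In the proliferating cluster, 47 of 189 Vsir-/- cells and 88 of 118 WT cells had a CD3 UMI, and in these *Trac* was at 568 against 394 CPM, *Trbc1* at 643 against 552, *Trbc2* at 945 against 1049, *Lck* at 226 against 275, and *Lat* at 265 against 246. Of these only *Trac* had intervals that did not overlap (516–624 against 363–427). In the whole proliferating cluster the marker genes of other cells differed too, with 6300 CPM of tubule genes in Vsir-/- against 116 in WT. The 5 B cell genes stood at 9.45 against 3800 CPM and the 5 NK genes at 86.8 against 1349. Apart from leaving tubule and mitochondrial genes out of the UMI total, the part of these genes was not tested.

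A wider list of 60 genes that act with the receptor (coreceptors, kinases, adaptors, phosphatases, and downstream factors) was read the same way, and its genes are ranked among those that reached 100 UMIs in a cluster, with 4 or more per library. In EM-like CD4+ cells 1 of its 60 genes was 2-fold or more higher in Vsir-/- and 4 were lower, where 10.4% and 5.41% of all genes were, with a median log2 ratio of −0.12 against 0.00 over all genes. The largest ratio was that of *Ubash3a* (100 against 32.8 CPM, log2 ratio 1.61, 1.23 to 2.00). It was followed by the surface receptor genes *Cd6* (180 against 92.4 CPM, 0.96) and *Cd5* (204 against 126 CPM, 0.70). The smallest were those of the Tec family kinase *Txk* (189 against 405; −1.10, −1.29 to −0.92), the diacylglycerol kinase *Dgka* (48.2 against 101; −1.07), and *Ubash3b* (23.5 against 47.5; −1.02). The 5 NK genes summed to 236 CPM in Vsir-/- and 828 in WT cells of this cluster, and their part in these ratios was not tested. *Cd4* itself was 88.8 against 65.6 CPM (0.44, 0.11 to 0.76). The CD8 coreceptor genes were higher than *Cd4* in this cluster in both libraries. *Cd8a* was 134 against 140 CPM (−0.06, −0.31 to 0.18), and *Cd8b1* was 198 against 142 (0.48, 0.26 to 0.70). The cluster is called by its deposited name.

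In non-EM-like CD8+ cells, 0 of the 59 list genes tested were 2-fold or more higher and 3 lower, where 11.1% and 9.66% of all genes were, with a median of −0.40 against 0.04. The 3 were *Themis* (45.2 against 150 CPM; −1.73, −2.45 to −1.10), which tunes receptor signals in thymocytes, the adaptor *Grap2* (90.5 against 227; −1.33), and the transcription factor *Nfatc1* (18.1 against 41.7; −1.20). *Dusp2*, a phosphatase gene induced by activation, was 301 against 174 CPM (0.79, 0.52 to 1.06) and *Cd5* was 127 against 73.9 (0.78). The coreceptor genes *Cd8a* and *Cd8b1* were −0.60 and −0.58, near the member genes of that cluster. In EM-like CD8+ cells 8 of 55 were higher and 2 lower, where 6.03% and 9.98% of all genes were, with a median of −0.09 against −0.02. *Dusp2* again led (1132 against 494 CPM; 1.20, 0.94 to 1.45) and was followed by *Malt1* (235 against 123; 0.94), and the diacylglycerol kinase *Dgkz* was lowest (36.1 against 114; −1.66). The coreceptor *Cd4*, below that UMI limit, was 90.3 CPM in these Vsir-/- CD8+ cells against 7.29 in WT (3.63, 2.18 to 5.29), on 15 and 6 UMIs. The CD8 coreceptor genes differed in opposite directions there. *Cd8a* was 193 against 313 CPM (−0.70, −1.28 to −0.17), and *Cd8b1* was 554 against 374 (0.57, 0.21 to 0.91). Among the non-EM-like CD4+ cells 47 of the 60 were lower and 0 higher, where 10.7% and 47.8% of all genes were, with a median of −2.62 against 0.91. *Themis* (5.44 against 136 CPM; −4.64), *Tespa1* (−4.63), and *Grap2* (−4.39) had the smallest ratios. The largest lay above 0, with *Nck1* at 0.43 (0.16 to 0.70), *Sos1* at 0.43 (0.03 to 0.84), and *Orai1* at 0.27 (0.01 to 0.53). Each of them was below the median of 0.91 over all genes. Among cells of this cluster with a *Ptprc* UMI, 29 of the 60 were lower and 1 higher, where 9.04% and 33.7% of all genes were. In γδ T cells 3 of 43 were higher and 7 lower, where 5.98% and 6.6% of all genes were, and in NK cells 1 of 57 was higher and 9 lower, where 9.86% and 7.01% were. In ILC2 1 of 35 was higher and 11 lower, against 11.4% and 12.3%, and in proliferating cells 2 of 60 were higher and 46 lower, against 37.5% and 9.0%.

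The genes whose level was most like that of the 3 CD3 genes were sought across clusters of at least 20 cells, by Pearson's r of log2(CPM + 10). Over 16 WT clusters and 10119 genes the 5 closest were *Trac* (0.95), *Trbc1* (0.94), *Trbc2* (0.94), *Thy1* (0.93), and *Lat* (0.93), and *Cd247* was at rank 6, *Lck* at 16, and *Zap70* at 50. Over 13 Vsir-/- clusters and 11290 genes they were *Bcl11b* (0.98), *Trbc2* (0.97), *Lat* (0.96), *Crbn* (0.96), and *Cd5* (0.95), with *Trac* at rank 13, *Trbc1* at 14, *Zap70* at 31, *Cd247* at 41, and *Lck* at 118. *Bcl11b* encodes a transcription factor of T cell identity, and *Thy1* and *Cd5* are T cell surface proteins. Clusters of a library share its depth and its free RNA, so these values describe the deposited clusters only.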

How the data were processed

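Kidney cells of 1 WT and 1 Vsir-/- library were profiled by 3′ single-cell RNA-Seq. The authors counted UMIs with Cell Ranger 3.1.0 and merged, filtered, and clustered cells with Seurat 3.2.3 in R 4.0.3, and deposited raw UMI counts per gene and cell with a table of library, cluster, and the mitochondrial percentage of each cell. Per the study's methods, genes found in at least 5 cells and cells with at least 200 UMIs and at most 10% mitochondrial UMIs were kept; the lowest total in the table was 501 UMIs. The submitters' processing notes name the genome build mm9, the files hold no coordinates, and sequences came from RefSeq and GENCODE tables of GRCm38, in which 7 of the 10 genes had a promoter entry. The methods describe a CD45+ sort for both libraries, unlike the labels. How many mice went into a library, whether doublets were removed, and how reads shared by *Trbc1* and *Trbc2* were assigned is not given in the sources used here. No doublet caller was run.

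UMIs of each gene were summed by the deposited cluster and library and divided by all UMIs of the same cells. Intervals are exact Poisson for levels, Clopper-Pearson for shares, and exact conditional for ratios; UMIs count molecules, and the intervals leave out variation between animals. Ratios in counts of genes past 2-fold used 0.5 added UMI and were limited to genes whose UMIs over both libraries reached 20 in that cluster. Cells were thinned to 1000 UMIs, leaving out shallower cells. Genes of the wider list were named by the 3 largest and 3 smallest ratios per T cell cluster after a minimum of 100 UMIs in total and 4 per library, with the coreceptor genes added; 1 gene that this rule names is not reported here. The 10 genes, the lists, and the measures were chosen with earlier results of these data known, and the EM-like contrast and the split by CD3 UMI after the values were seen. Code was tested on simulated data (Python 3.11.15, numpy 2.4.6, scipy 1.17.1, pandas 2.3.3, matplotlib 3.10.9).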

Additional observations from a re-analysis of the deposited data

Results flagged for a closer look

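Leaving aside the non-EM-like CD4+ cluster, in which all 10 genes were lower in Vsir-/-, the direction of 4 members differed between T cell clusters, with counting intervals that excluded 0 on either side, and these differences between clusters were not tested because each genotype has 1 library. *Trac* had a log2 ratio of Vsir-/- over WT of 0.15 in EM-like CD4+ cells, but −0.40 in non-EM-like CD8+ cells and −1.77 in γδ T cells. The higher *Trac* of EM-like CD4+ cells was absent among those with a CD3 UMI, and the γδ value rests on 10 Vsir-/- UMIs. *Cd3d* was at 0.20 in EM-like CD4+ cells and at 0.31 in γδ T cells, against −0.38 in non-EM-like CD8+ cells. The γδ interval of *Cd3d* (0.00 to 0.61) barely excluded 0, and among cells with a *Ptprc* UMI it held 0 (−0.08 to 0.54). *Cd3g* was at 0.24 in EM-like CD4+ cells, against −0.46 in non-EM-like and −0.44 in EM-like CD8+ cells. The EM-like CD4+ ratios of *Cd3d* and *Cd3g* include cells that lack any CD3 UMI. Such cells add nothing to either gene and formed a larger share of the WT cluster. Their part in the positive ratios of both genes was not tested, so a difference in direction between clusters is not established for them. *Lat*, the adaptor, was at 0.22 in EM-like CD4+ and 0.69 in EM-like CD8+ cells, against −0.72 in non-EM-like CD8+ cells. Among EM-like CD4+ cells with a CD3 UMI, the *Lat* levels of the 2 libraries lay closer together.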

How the results depend on the processing

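No paired analysis was possible because each genotype has 1 library, and no replicate could be left out. The log2 ratio of the 10 genes summed (Vsir-/- over WT) kept its sign in all 8 clusters under the 6 alternatives tried. Among them was a UMI total that left out tubule and mitochondrial genes. In non-EM-like CD4+ cells (−3.77 as reported) it was −1.77 with cells holding a *Ptprc* UMI, −2.92 with a mitochondrial share of at most 5%, −3.69 without cells above the 99th percentile of UMIs, −2.51 as a mean over cells, and −2.50 after thinning. In proliferating cells (−2.07) the same settings gave −0.71, −1.71, −2.00, −1.43, and −1.55. In EM-like CD4+ cells (0.02) it was 0.075 at 5% mitochondrial UMIs, 0.090 as a mean over cells, and 0.14 thinned, in non-EM-like CD8+ cells −0.30 at 5%, and in EM-like CD8+ cells −0.24 thinned. In ILC2 (−0.78) it was −0.26 without the highest UMI totals, −0.10 as a mean over cells, and −0.37 thinned. In Vsir-/- as reported, the lowest T cell cluster was non-EM-like CD4+ at 474 CPM. The highest B or myeloid cluster of at least 20 cells was neutrophils at 64.3 CPM. The ratio of the lowest T cell cluster to the highest such cluster moved up from there to 29.1 (*Ptprc* cells), 12.0 (5% mitochondrial), 24.4 (mean over cells), and 28.4 (thinned). Thinning gave CD3 shares of 88.4% (WT) and 20.9% (Vsir-/-) in non-EM-like CD4+, 70.6% and 84.2% in EM-like CD4+, 86.6% and 72.0% in non-EM-like CD8+, 89.7% in WT EM-like CD8+, 50.7% in NKT, 13.8% and 1.49% in NK, 10.5% in Vsir-/- ILC2, and 50.9% and 18.0% in proliferating cells. In place of the share of UMIs, the share of cells with more *Trbc1* than *Trbc2* UMIs was taken, among cells with a UMI of either gene. Unlike the 80% limit used earlier, this needs only a majority. It was 29.8% and 21.6% in non-EM-like CD4+, 32.8% and 29.9% in EM-like CD4+, 26.8% in WT non-EM-like CD8+, 32.5% and 25.0% in EM-like CD8+, 24.4% and 28.6% in γδ T, 25.3% in NKT, 77.6% in Vsir-/- NK, 5.26% in WT ILC2, and 45.6% in Vsir-/- proliferating cells. Wider list counts moved to 1 higher at 1.5-fold, and to 1 higher and 29 lower among *Ptprc* cells, in non-EM-like CD4+ cells. They moved at 1.5-fold to 5 higher and 13 lower in EM-like CD4+ and to 5 and 17 in non-EM-like CD8+ cells, and in EM-like CD8+ cells to 4 lower with any UMI and 11 lower at 1.5-fold. Among single genes whose interval excluded 0, those that changed sign were *Trbc1* (0.018) and *Trbc2* (0.030) in EM-like CD4+ cells and *Cd247* (−0.043) and *Lck* (0.13) in γδ T cells after thinning, and *Trbc2* in ILC2 without the highest UMI totals (0.016) and as a mean over cells (0.14). The cause was not tested. The 6 UMIs of *Lck* in Vsir-/- γδ T cells and the 19 Vsir-/- ILC2 limit what can be read there.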
